A study of Mus musculus with 8 samples.

Results

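The genes described here are the mouse zinc finger genes named Zfp with a number alone, measured by RNA sequencing in CD8 T cells from IL-2-KO mice, which lack functional interleukin-2, a T cell growth factor, and from WT mice. A gene was included when its symbol had that form and its mean over the 8 libraries was at least 5 on the deposited scale, a read count divided by the TMM-scaled library size and multiplied by 1e6 (CPM). Of 303 such names among the 11723 genes listed, 258 met the limit and 45 did not. The members were selected on this mean level over all libraries, which is not tested here, and the difference between IL-2-KO and WT played no part. Zfp189, Zfp11 and Zfp771 lay just inside the limit, and Zfp78 with a mean of 4.92 CPM, Zfp759 with 4.76 CPM and Zfp773 with 4.65 CPM lay just outside.

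The cells were sorted from peripheral lymph nodes of BALB/c mice 12 days old, with 4 libraries of each genotype from total RNA prepared with a stranded kit. The WT libraries came from 115, 28.7, 1.3 and 1.3 M cells of 5, 5, 3 and 2 pooled mice, in the order of replicates 1 to 4. For IL-2-KO, 26.7, 42.6, 1.1 and 0.4 M cells were sorted, and the labels used here give no number of mice for them. Spleen and heterozygous (HET) controls appear in the design text of the series and not in the sample labels, so the WT group may include heterozygotes. In these bulk samples, fewer cells of a type and less RNA per cell cannot be told apart.

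Most Zfp genes encode proteins with arrays of C2H2 zinc fingers, in which each finger is folded around a zinc ion and touches a few bases of DNA. The largest subfamily carries a KRAB box as well, a short domain that recruits the corepressor TRIM28 (KAP1) and with it the histone methyltransferase SETDB1 and HP1 proteins, and many of its members silence retroviruses and other transposable elements. KRAB zinc finger genes have multiplied by local duplication, so that many lie side by side in clusters of close paralogs. The Zfp name is not a single family. Zfp36 (tristetraprolin), for example, has fingers of another type and promotes the decay of mRNAs with AU-rich elements.

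A KRAB box was found in the translated transcripts of 147 of the 258 genes, and none was found in 110. No coding transcript was available for 1 gene, Zfp267. A SCAN domain, which joins zinc finger proteins into pairs, was found in 11. When genes at most 500 kb apart were joined, 134 members fell in 21 clusters of at least 3, of which 104 carried a KRAB box. The median GC content of the transcripts was 40.8% for the KRAB members and 50.9% for those without a match, against 49.5% over all genes tested.

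The promoters of 4 members are shown because Zfp974 had the lowest IL-2-KO to WT ratio of the family, and because Zfp868, Zfp869 and Zfp963 are neighbours on chromosome 8 that were all lower in IL-2-KO. Each is the RefSeq window of 300 bases, most of them upstream, around a transcript start on build GRCm38.p6, minus strand, read 5′ to 3′. They were chosen after the values were seen. Most of the Zfp974 and Zfp869 windows lie inside the annotated genes, whose 5′ ends are at 27929699 and 69717068. The starts used for these genes are therefore internal. Capitals mark matches, on either strand, to CCGGAAG (the core of ETS family sites), the NRF1 site (GCGC, any 2 bases, GCGC), CCAAT (the NFY box), GGGCGG (the GC box) and TTCNNNGAA (the STAT site, the motif bound by STAT5 downstream of interleukin-2).
Zfp974, chr7:27929409-27929708: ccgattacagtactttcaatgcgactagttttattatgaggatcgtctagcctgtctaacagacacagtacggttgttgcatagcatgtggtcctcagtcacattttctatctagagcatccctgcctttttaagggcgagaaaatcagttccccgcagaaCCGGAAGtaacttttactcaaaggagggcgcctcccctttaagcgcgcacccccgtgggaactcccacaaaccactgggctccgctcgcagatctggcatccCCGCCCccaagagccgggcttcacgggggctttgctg
Zfp868, chr8:69625499-69625798: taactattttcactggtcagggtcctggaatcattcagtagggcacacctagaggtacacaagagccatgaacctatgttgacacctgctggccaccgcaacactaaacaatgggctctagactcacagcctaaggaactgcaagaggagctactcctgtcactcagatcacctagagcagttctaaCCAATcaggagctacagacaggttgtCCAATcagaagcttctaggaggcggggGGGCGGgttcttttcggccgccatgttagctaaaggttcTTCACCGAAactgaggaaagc
Zfp869, chr8:69716853-69717152: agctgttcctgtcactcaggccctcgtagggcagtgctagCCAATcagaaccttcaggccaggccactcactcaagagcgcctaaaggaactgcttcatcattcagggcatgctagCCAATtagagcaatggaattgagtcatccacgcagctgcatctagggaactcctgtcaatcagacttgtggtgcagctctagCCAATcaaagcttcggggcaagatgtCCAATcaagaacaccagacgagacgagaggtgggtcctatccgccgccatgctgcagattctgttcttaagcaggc
Zfp963, chr8:69749913-69750212: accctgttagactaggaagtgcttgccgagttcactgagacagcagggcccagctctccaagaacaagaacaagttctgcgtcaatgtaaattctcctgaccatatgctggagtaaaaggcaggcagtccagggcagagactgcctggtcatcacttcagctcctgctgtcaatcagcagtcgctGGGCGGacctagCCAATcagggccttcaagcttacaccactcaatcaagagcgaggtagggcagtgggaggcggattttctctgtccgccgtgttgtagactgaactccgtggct
The Zfp868, Zfp869 and Zfp963 windows all held CCAAT, with 2, 4 and 1 matches, and the Zfp974 window held none. Zfp868 has 2 windows in the table, of which the first is shown. A window was available for 219 members. Each motif is set beside 2 backgrounds, all 27025 mouse windows and the 9350 windows of genes listed here, of which the second fits members chosen on their level. CCAAT was present in 50.2% of the members' windows, 37.9% of all and 39.7% of the listed genes' windows. The STAT motif was present in 17.8%, 8.5% and 7.0%. The ETS core was present in 23.3%, 9.1% and 19.4%, so that members were above all windows and nearer to the listed genes. The GC box (48.4%, 35.9% and 64.1%) and the NRF1 site (8.7%, 6.4% and 14.3%) were more frequent in members than in all windows but less frequent than in listed genes. Between members called lower and members not called, CCAAT was present in 46.9% of 32 and 50.8% of 185 windows and the STAT motif in 18.8% and 17.3%. The same shares were 18.8% and 24.3% for the ETS core, 59.4% and 45.9% for the GC box and 3.1% and 9.7% for the NRF1 site. The median GC content of the windows was 54.3% in members, 52.7% in all and 60.7% in listed genes. No share was adjusted for GC content or for paralogs among the members. These matches are descriptions of letters in a window and not of bound sites.

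The libraries held between 11.9 and 18.4 M counts, recovered from the steps of the deposited values. Of a library's nonzero values under 20 CPM, between 54.6% and 65.0% were whole reads and the rest were fractions of a read. How the fractions arose was not tested. All 8 values were whole reads within 0.01 read for 57 members, 12 of them with a KRAB box. Values of close paralogs may include reads that could belong to a neighbour and are uncertain to that extent. The Il2 gene gave 5.72, 5.65, 6.25 and 5.91 CPM in WT and 5.13, 7.32, 8.42 and 4.25 CPM in IL-2-KO, and these groups overlapped (two-sided exact permutation test over 70 assignments, p = 0.714). The Il2 value therefore does not check the genotype labels, and the sources used here do not say whether the counted reads lie in the deleted part. Cd8a averaged 1840 CPM in WT and 1660 CPM in IL-2-KO, and none of the 5 CD8 T cell markers tested was called. WT replicate 2 and IL-2-KO replicate 3 stood apart: Lyz2, a myeloid marker, was at 40.0 and 296 CPM there, Cd4 was at 38.6 and 45.5 CPM there and between 0.461 and 2.48 CPM elsewhere, and the 5 listed myeloid and dendritic markers summed to 138 and 497 CPM, against 36.9 to 53.7 CPM in the other 6 libraries. The 12 cell cycle genes summed to 655 to 740.4 CPM in WT and 1459 to 1927 CPM in IL-2-KO, and all 12 were called higher. The 3 listed NK markers summed to 106 to 156 CPM in WT and 217 to 404 CPM in IL-2-KO, where Klre1 and Eomes, which activated CD8 T cells also express, were called higher. Of 5 CD4 and regulatory T cell markers, Ctla4 was called higher, and Foxp3 lay between 3.92 and 4.49 CPM in WT and between 2.69 and 3.56 CPM in IL-2-KO (log2 change -0.43, which did not pass the test). None of the 5 myeloid, 2 B cell, 3 erythroid and 3 stromal markers tested was called. The part of the cell cycle genes and of these markers in the results below was not tested. Leaving out both marked libraries bears at most on the myeloid and Cd4 RNA. It does not bear on the cell cycle genes, whose sum was high in every IL-2-KO library.

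Across the family, Zfp genes were lower in IL-2-KO far more often than higher. Each gene was tested with limma on log2(CPM + 0.5), and p-values were adjusted by Benjamini-Hochberg across all 11530 tested genes and called at 0.05. All 258 members were tested, and 36 fell (14.0%) while 2 rose, Zfp467 and Zfp282. Over all genes tested, 8.03% were called lower, 11.1% were called higher and 19.2% were called in either direction. The median log2 change of the members was -0.18 against -0.01 over all genes, and 210 members (81.4%) had a negative value against 51.5% of all genes. The 4 IL-2-KO values all lay below the 4 WT values for 49 members (19.0%) and above them for 3, against 11.2% and 12.9% of all genes. The number called depended on single libraries: it was 18, 15 and 13 lower without WT replicates 1, 3 and 4 and 23 without IL-2-KO replicate 3. Those were 6.98%, 5.81%, 5.04% and 8.91% of members, against 4.87%, 3.81%, 4.04% and 6.38% of all genes in the same fits. The calls therefore fell among all genes as well, and the shares came closer together. Without both WT replicate 2 and IL-2-KO replicate 3, 38 members were lower (14.7%, against 7.34% of all genes).

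The members with a KRAB box had the lower median and most of the falls. Of these 147, 28 fell (19.0%) and 1, Zfp282, rose, with a median log2 change of -0.23 and a negative value in 86.4%. Of the 110 members without a match, 8 fell (7.27%) and 1, Zfp467, rose, with a median of -0.13 and a negative value in 74.5%. Their share of falls was close to the 8.03% of all genes, so the excess of called falls lay in the KRAB members. All 11 members with a SCAN domain were negative, with a median of -0.20 and 1 fall (9.09%, also close to all genes). Single libraries moved both counts. Without WT replicates 1, 3 and 4, 14, 12 and 10 KRAB members and 4, 3 and 3 others were lower, and without IL-2-KO replicate 2 or 3 the count of others was 5 or 3. Without those WT replicates the KRAB shares were 9.52%, 8.16% and 6.80%, against 4.87%, 3.81% and 4.04% of all genes. The difference between the KRAB members and the others was not tested, since the members share sequence and chromosomal position. Of the 12 KRAB members with whole reads in all 8 libraries, 3 fell and the median was -0.29. By the number of C2H2 fingers, the median was -0.07 for 31 members with at most 3 fingers, -0.16 for 41 with 4 to 7, -0.21 for 76 with 8 to 11, -0.23 for 62 with 12 to 15 and -0.22 for 47 with 16 or more. Most members with at most 3 fingers had no KRAB match, and finger number was not separated from the KRAB class. After correction of each library for transcript GC content and length, 32 KRAB members were lower and their median was -0.18. Those were 21.8% of the KRAB members, against 9.89% of all genes in the same fit.

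**Figure D1:**
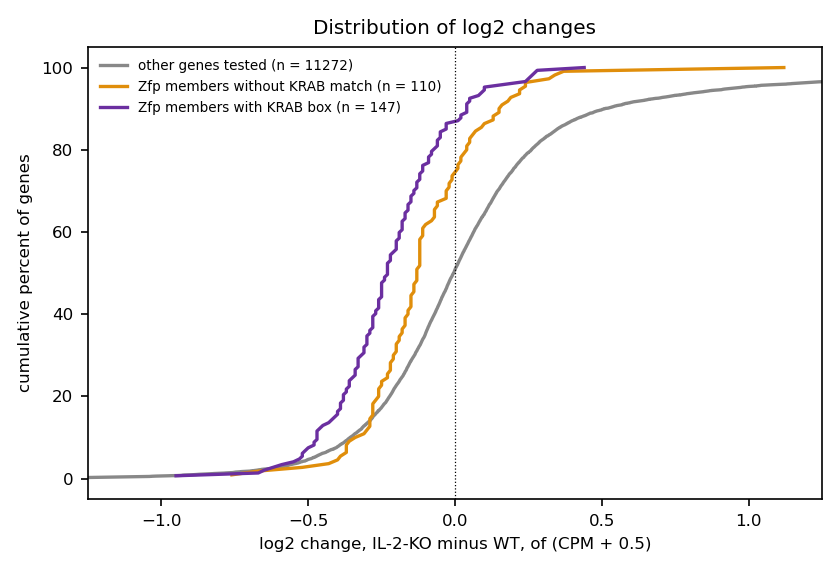
Cumulative distribution of the log2 change, IL-2-KO minus WT, of log2(CPM + 0.5), for KRAB members (147 genes), members without a KRAB match (110 genes) and all other genes tested (11272 genes), with the horizontal axis limited to the central range. The KRAB line lies farthest to the left over most of its course, with a median of -0.23, and the line of the other genes crosses its middle close to 0.

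The same shift appears in the summed level of the family in each library. All members together summed to 11926, 11450, 12302 and 12475 CPM in WT replicates 1 to 4 and to 10341, 11116, 10242 and 11147 CPM in IL-2-KO. The highest IL-2-KO sum was below the lowest WT sum. The KRAB members summed to 5125, 4596, 5193 and 5310 CPM in WT and to 4005, 4565, 4056 and 4500 CPM in IL-2-KO, where IL-2-KO replicate 2 lay just under WT replicate 2. Members without a KRAB match summed to 6791, 6845, 7099 and 7155 CPM in WT and to 6331, 6543, 6178 and 6637 CPM in IL-2-KO. Their groups did not overlap either, so the lower sums were not confined to the KRAB members. The libraries were less cleanly divided by the median gene: relative to the WT mean, the median KRAB member was at 0.03, -0.13, 0.04 and 0.09 (log2) in WT and at -0.33, -0.12, -0.31 and -0.17 in IL-2-KO. WT replicate 2 was as low as IL-2-KO replicate 2. The median over all genes was 0.00 in every library to 2 decimals.

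**Figure D2:**
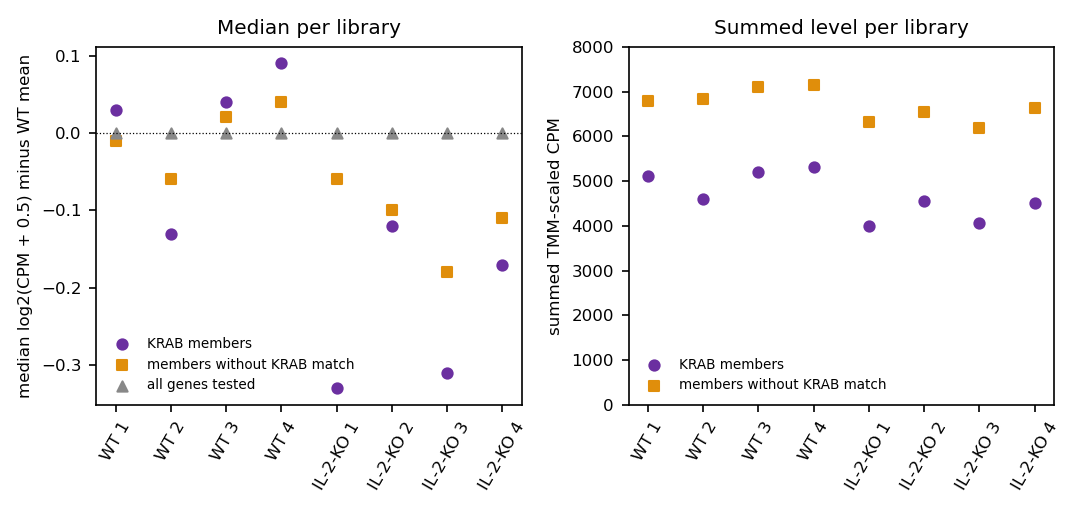
Left, the median log2(CPM + 0.5) of each library relative to the WT mean for KRAB members, members without a KRAB match and all genes tested; right, the summed CPM of the 2 groups of members, on an axis from 0. IL-2-KO replicates 1 and 3 have the lowest KRAB medians, at -0.33 and -0.31, and WT replicate 2, at -0.13, lies among the IL-2-KO libraries.

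The largest falls were in Zfp974, Zfp318 and Zfp827. Zfp974, a KRAB zinc finger gene with 21 fingers (chromosome 7, 27905414 to 27929699, minus strand, GRCm38.p6), was at 19.2, 20.1, 19.8 and 18.4 CPM in WT and at 8.84, 10.5, 10.8 and 9.14 CPM in IL-2-KO. Every IL-2-KO library was far below every WT library, and the log2 change was -0.95 ± 0.11 (SE, 4 against 4 libraries; limma adjusted p = 3.2e-04), a ratio of 0.519. Of its 8 values, 1 was a whole read number.

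Zfp318, which has no KRAB box and is needed in mouse B cells for expression of IgD, was at 121, 109.6, 128 and 133 CPM in WT and at 65.9, 77.8, 66.6 and 79.7 CPM in IL-2-KO. The groups were well separated, with a log2 change of -0.76 ± 0.09 (limma adjusted p = 4.1e-04). It is the single called member that stayed past the threshold in all 21 alternative analyses. Zfp827, whose human counterpart recruits the NuRD complex to telomeres maintained without telomerase, was at 78.7, 68.9, 82.8 and 77.8 CPM in WT and at 47.2, 47.7, 43.7 and 55.5 CPM in IL-2-KO, again without overlap, for a log2 change of -0.67 ± 0.09 (limma adjusted p = 8.7e-04). These genes were among the few falls outside the KRAB group.

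The next falls were in KRAB members. Zfp661 was at 18.3, 16.2, 20.9 and 20.6 CPM in WT and at 13.3, 11.9, 13.3 and 14.0 CPM in IL-2-KO, with whole reads in every library and a log2 change of -0.51 ± 0.12 (limma adjusted p = 0.0129). Zfp7 was at 49.3, 39.2, 45.8 and 47.2 CPM in WT and at 37.3, 32.1, 30.0 and 30.0 CPM in IL-2-KO, with a log2 change of -0.48 ± 0.10 (limma adjusted p = 0.00996). In both genes all IL-2-KO values lay below all WT values. Zfp28, Zfp945 and Zfp970 also fell, by 0.59, 0.52 and 0.52 on the log2 scale (limma adjusted p = 0.0341, 0.0311 and 0.0457). Their calls were less stable. The calls of Zfp28 and Zfp945 held in 12 of 21 alternative analyses each and that of Zfp970 in 9, whereas those of Zfp974, Zfp827 and Zfp7 held in 19. In Zfp945 the groups overlapped, since WT replicate 2 was at 59.7 CPM and IL-2-KO replicate 2 at 63.4 CPM. In Zfp970, WT replicate 1 at 15.4 CPM stood above the other WT libraries, which lay between 9.57 and 10.2 CPM.

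Zfp467 and Zfp282 rose, and they lie in the same chromosome 6 cluster. Zfp467, which in mouse marrow stromal cells favours the fat cell fate, was at 4.19, 2.28, 2.94 and 3.98 CPM in WT and at 9.98, 6.21, 9.73 and 5.65 CPM in IL-2-KO. No values overlapped, all were whole reads, and the log2 change was 1.12 ± 0.24 (limma adjusted p = 0.00955). Zfp282, whose human counterpart was found as a repressor of the HTLV-1 promoter, was between 15.3 and 20.4 CPM in the 4 WT libraries and at 23.9, 24.8, 26.0 and 27.0 CPM in IL-2-KO, with a log2 change of 0.44 ± 0.11 (limma adjusted p = 0.0216). The call of Zfp467 held in 19 of 21 alternative analyses and that of Zfp282 in 16. Among other fits, Zfp282 lost its call without WT replicate 3 and without both WT replicate 2 and IL-2-KO replicate 3. Zfp777, a KRAB member of the same cluster, fell by 0.30 on the log2 scale (limma adjusted p = 0.0215), a call that held in 14 of 21 alternative analyses.

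**Figure D3:**
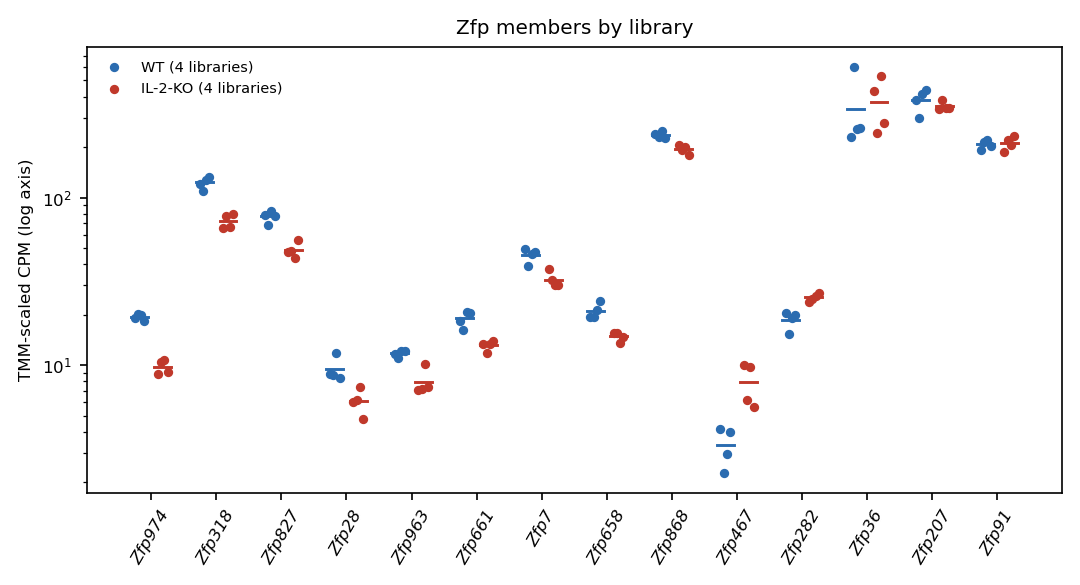
TMM-scaled CPM (log axis) of 14 members in each of the 4 WT (blue) and 4 IL-2-KO (red) libraries, with a bar at each group's mean. The groups do not overlap for Zfp974, Zfp318 and Zfp827, nor for the rises Zfp467 and Zfp282, whereas Zfp36, Zfp207 and Zfp91 overlap.

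Per length of transcript, the highest members were Zfp36 at 127 CPM per kb, Zfp207 at 112, Zfp868 at 95.2, Zfp869 at 47.9, Zfp146 at 43.6 and Zfp445 at 41.5. Zfp207, a spindle assembly factor, was at 382, 296, 413 and 435 CPM in WT and at 337, 384, 340.4 and 340.2 CPM in IL-2-KO, and the log2 change of -0.11 ± 0.12 did not pass the test. Zfp36 had the widest spread, at 231, 598, 257 and 258 CPM in WT and at 432, 241, 534 and 279 CPM in IL-2-KO. The change of 0.19 had a 95% confidence interval from -0.53 to 0.91 and did not pass the test. The libraries with the most myeloid marker RNA, WT 2 and IL-2-KO 3, were the highest of their group for Zfp36. Zfp445, a KRAB protein that maintains genomic imprints, was at 294, 234, 287 and 299.7 CPM in WT and at 217, 263, 214 and 246 CPM in IL-2-KO, for a change of -0.25 ± 0.10 that did not pass (limma adjusted p = 0.118).

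Most of the members with a known function in other settings did not pass the test. The log2 changes were -0.11 for Zfp335, which is needed for T cell maturation in mice, 0.10 for Zfp281, a regulator of pluripotent stem cells, and -0.20 for Zfp148, which binds GC-rich promoters. They were 0.03 for Zfp91, an E3 ubiquitin ligase, -0.15 for Zfp217, whose human counterpart is amplified in breast cancer, and 0.22 for Zfp106, an RNA-binding protein. Zfp809, which silences murine leukaemia provirus through its primer binding site, was at 69.3, 59.4, 70.8 and 80.7 CPM in WT and at 53.3, 71.3, 59.5 and 66.8 CPM in IL-2-KO, with overlapping groups and a change of -0.16 ± 0.12 (limma adjusted p = 0.372). Zfp638, a partner of the HUSH silencing complex in human cells, fell by 0.29 on the log2 scale (limma adjusted p = 0.0283) from 227, 236, 244 and 249 CPM in WT to 180.5, 219, 183 and 202 CPM in IL-2-KO, without overlap. Its call held in 12 of 21 alternative analyses and was lost without WT replicate 3 or 4, without IL-2-KO replicate 1 or 3, and with the GC and length correction.

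The members in clusters had a median log2 change of -0.22 (21 of 134 lower, 15.7%, and 2 higher, 1.49%). Those outside had -0.14 (15 of 124 lower, 12.1%). Over all genes tested, 8.03% were lower and 11.1% were higher. Without WT replicates 1, 3 and 4 the clustered count was 9, 8 and 7, where 4.87%, 3.81% and 4.04% of all genes were lower. Among KRAB members, the median was -0.25 for the 104 inside clusters (21 lower, 20.2%) and -0.19 for the 43 outside (7 lower, 16.3%). None of the 30 clustered members without a KRAB match was called lower, too few genes to be told from the 8.03% of all genes. By chromosome, 9 of 34 members were lower on chromosome 17 against 7.69% of its other genes tested, and 5 of 19 on chromosome 8 against 8.09%. The counts were 7 of 62 on chromosome 7 against 7.23% and 3 of 24 on chromosome 13 against 10.8%, the latter close to its background. No member was called among 12 on chromosome 4 and 10 on chromosome 11, where 9.22% and 7.50% of other genes were lower, and numbers this small cannot be told from those shares. Neighbouring members share sequence, and clusters are therefore described without a test.

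The largest cluster, Zfp160 to Zfp213 on chromosome 17 (21008941 to 23564226), held 19 members, 18 of them with a KRAB box. Of these 19, 16 were negative and 5 fell, namely Zfp945, Zfp942, Zfp983, Zfp944 and Zfp51, and the median was -0.25, with values from -0.52 to 0.24. That median was -0.16 after the GC and length correction and -0.09 in the libraries of 2 M or more cells. The call of Zfp944 held in 19 of 21 alternative analyses, that of Zfp51 in 14, those of Zfp942 and Zfp945 in 12 and that of Zfp983 in 11. Zfp51, Zfp942, Zfp945 and Zfp983 each lost theirs without WT replicate 1, 3 or 4. Zfp944 gave the best separated values, at 68.2, 64.6, 72.8 and 69.5 CPM in WT and at 50.9, 56.3, 54.9 and 52.4 CPM in IL-2-KO, for a log2 change of -0.36 ± 0.07 (limma adjusted p = 0.00680). Zfp51 was at 65.4, 62.5, 65.2 and 70.5 CPM in WT and at 48.0, 51.2, 54.5 and 57.7 CPM in IL-2-KO, also without overlap, for -0.32 ± 0.08 (limma adjusted p = 0.0206). The members did not all move together. Zfp52 had 0.24, Zfp948 had 0.05 and Zfp995 had 0.01, none of which passed the test. Zfp760 spread from 13.5 to 36.8 CPM among the WT libraries alone.

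A second chromosome 17 group, Zfp871 to Zfp414 (32765496 to 33631716), held 9 members, all negative, with a median of -0.34. Zfp763, Zfp563 and Zfp472 fell, by 0.47, 0.43 and 0.34 on the log2 scale (limma adjusted p = 0.0306, 0.0139 and 0.0254). Their calls held in 11, 16 and 14 of 21 alternative analyses, and each was lost without WT replicate 4. Of 3 other named genes between them, Cyp4f13, Adamts10 and Myo1f, 2 were lower and 1 was higher, so that the region was not uniform.

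The chromosome 13 cluster, Zfp712 to Zfp273 (67038594 to 67827000), held 15 members, all with a KRAB box. Of these, 13 were negative, the median was -0.22 with values from -0.47 to 0.04, and 2 fell. Without WT replicate 4 the median was -0.14, as it was after the GC and length correction, and it was -0.12 in the libraries of 2 M or more cells. Zfp85 was at 12.6, 15.4, 13.8 and 14.0 CPM in WT and at 10.2, 10.4, 11.3 and 8.11 CPM in IL-2-KO (-0.47 ± 0.13, limma adjusted p = 0.0310). Zfp87 was at 30.1, 28.6, 27.8 and 32.2 CPM in WT and at 21.6, 25.0, 21.6 and 25.2 CPM in IL-2-KO (-0.34 ± 0.10, limma adjusted p = 0.0326). Neither overlapped between groups, but the calls were not stable, since Zfp85 held its call in 12 and Zfp87 in 11 of 21 alternative analyses. The library medians of the 15 members were -0.36, -0.08, -0.29 and -0.12 in IL-2-KO replicates 1 to 4, relative to the WT mean.

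The small chromosome 8 cluster, Zfp930 to Zfp866 (69209018 to 69774911), had the highest share of falls among the clusters of 5 or more members, 3 of 5, with a median of -0.36. Zfp868 was at 239, 229.9, 248 and 226 CPM in WT and at 205, 192, 200.3 and 179 CPM in IL-2-KO, a change of -0.28 ± 0.07 (limma adjusted p = 0.0170). Zfp869 was at 94.7, 79.7, 80.9 and 87.7 CPM in WT and at 66.5, 71.2, 61.8 and 66.6 CPM in IL-2-KO, a change of -0.36 ± 0.08 (limma adjusted p = 0.0109). Zfp963 was at 11.7, 11.0, 12.2 and 12.1 CPM in WT and at 7.13, 7.19, 10.1 and 7.41 CPM in IL-2-KO, a change of -0.55 ± 0.14 (limma adjusted p = 0.0206). The IL-2-KO and WT values of each gene did not overlap. At most 1 of the 8 values was a whole read number in each of them. The call of Zfp869 held in 19 of 21 alternative analyses, that of Zfp868 in 16 and that of Zfp963 in 14. Both Zfp868 and Zfp963 lost theirs without WT replicate 1 or 3. Zfp963 also lost its call without WT replicate 4 and without IL-2-KO replicate 2. Zfp866 had -0.53 and Zfp930 had -0.15, and neither passed the test.

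On chromosome 7, the 14 members from Zfp84 to Zfp146 (29768552 to 30169775) had a median of -0.18 and 1 fall, Zfp84, whose call held in 13 of 21 alternative analyses. The median was -0.10 without IL-2-KO replicate 3 and -0.06 in the libraries of 2 M or more cells. The 3 members from Zfp715 to Zfp719 (43296522 to 43593710) had a median of -0.40. There Zfp715 was at 52.5, 62.4, 61.9 and 64.0 CPM in WT and at 44.9, 44.5, 46.7 and 45.5 CPM in IL-2-KO, with a log2 change of -0.40 ± 0.08 (limma adjusted p = 0.00743). Zfp658 fell by 0.48 (limma adjusted p = 0.0127), and both genes were without overlap. The 4 other named genes there, which include Nkg7, a cytotoxic granule gene, went the other way, with 3 of 4 called higher and a median of 0.48. The 9 members from Zfp553 to Zfp646 (127233061 to 127885996), of which 4 carry a KRAB box, had no calls and a median of -0.12, which was -0.04 without WT replicate 3, -0.05 without IL-2-KO replicate 1, -0.07 in the libraries of 2 M or more cells and -0.25 with quantile normalization. The 3 chromosome 2 members from Zfp968 to Zfp966 had a median of -0.50 without a call, and their IL-2-KO library medians ran from -0.89 in replicate 1 and -0.80 in replicate 3 to -0.18 and -0.13 in replicates 2 and 4.

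**Figure D4:**
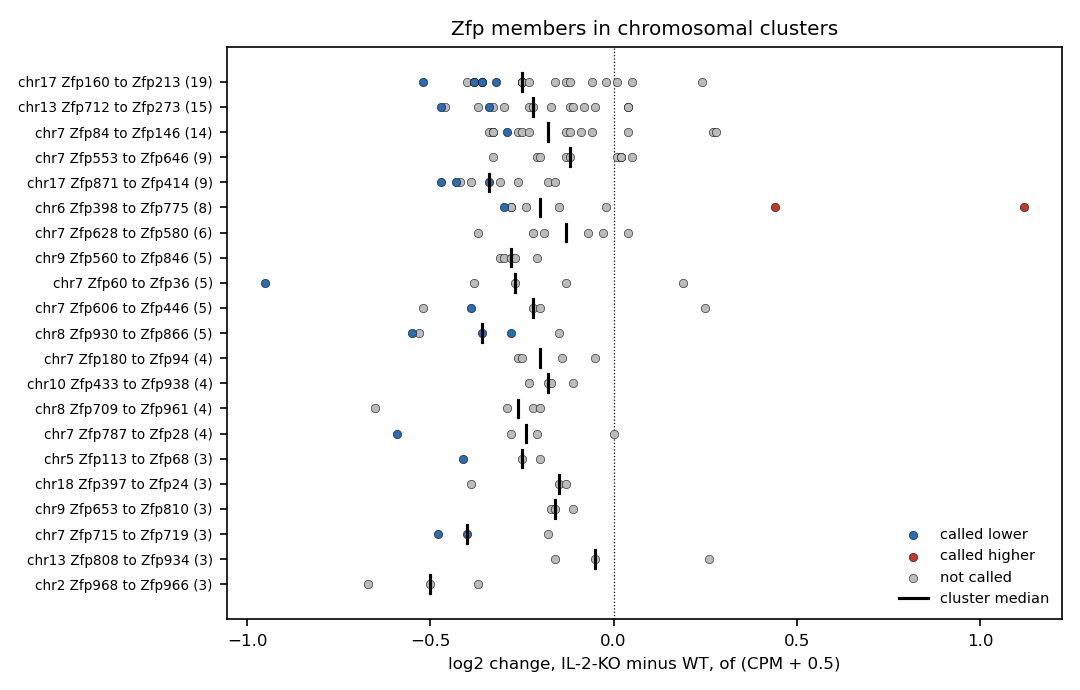
Log2 change, IL-2-KO minus WT, of log2(CPM + 0.5) for each member of the 21 clusters (number of members in brackets), with called falls in blue, called rises in red, other members in grey and the cluster median as a bar. All 21 medians lie left of 0, from -0.50 to -0.05 (that of Zfp808 to Zfp934 turns to 0.02 with array weights), and both rises lie in the chromosome 6 cluster from Zfp398 to Zfp775.

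Related zinc finger families were set beside the Zfp genes. Of 37 Zbtb genes, 1 rose and 3 fell (8.11%, close to the 8.03% of all genes), with a median of -0.11. Zbtb32, which restrains lymphocyte responses, rose by 2.80 on the log2 scale (limma adjusted p = 1.3e-04). None of 12 Klf genes was called, too few genes to be told from the 19.2% of all genes called in either direction. Of 19 Zscan and Zkscan genes, which carry SCAN domains, 1 rose (5.26%) and 2 fell (10.5%) with a median of -0.22. The 23 Zfp genes with a letter suffix had a median of -0.22 and 3 falls (13.0%). Of all genes, 11.1% rose and 8.03% fell, and the counts of these small families were not tested against those shares. The cofactors through which KRAB boxes act had a median near that of all genes: of 30 corepressor genes tested, 4 rose (13.3%, close to the 11.1% of all genes) and none fell, with a median of 0.01. Trim28 averaged 267 CPM in WT and 285 CPM in IL-2-KO (0.09, limma adjusted p = 0.308), and Setdb1 averaged 129 and 115 CPM (-0.17, limma adjusted p = 0.0879). The 4 rises were in Uhrf1 (1.34), Cbx5 (0.53), Suv39h1 (0.39) and Rbbp7 (0.26), which encode a reader of hemimethylated DNA, an HP1 protein, a histone H3 lysine methyltransferase and a histone chaperone.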

How the data were processed

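RNA was sequenced from 4 WT and 4 IL-2-KO CD8 T cell samples. Per the submitters' processing notes, reads were counted with featureCounts and processed with limma 3.34.9 in R 3.4.3 on GRCm38 (mm10). Neither the aligner nor the strand setting is given in the sources used here. Each gene has 1 deposited signal value in each library, on a linear scale, which the authors named a TMM count as CPM. Its 8 columns were matched to samples by title. Of 11723 gene IDs, 11651 matched a RefSeq GRCm38 symbol and 72 did not.

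Genes that reached a value of 1 in 4 or more of the 8 libraries were fitted with limma 3.58.1 in R 4.3.3 on log2(value + 0.5), WT and IL-2-KO alone, with no covariate and Benjamini-Hochberg adjustment. The empirical Bayes step used a mean-variance trend, and the script was checked on simulated data. A count test was not run, since many values were fractions of reads. Recovered depths were 11.9 to 18.4 M counts per library, and replicates differed by more than counting noise. The labels call them biological replicates, but the pooling of mice is given for WT alone.

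The members and lists were chosen with earlier results of these data known. Genes were named by a written rule (the 10 largest falls and all rises that passed, the 6 highest levels, a panel of known genes, the largest clusters and the 3 genes just inside the level limit), and the other genes after their values were seen. RefSeq proteins were planned for the classes, but GENCODE M21 transcripts translated in 3 forward frames were used. A KRAB box was called at 14 or more of 19 conserved positions (a share of 0.7), a limit set from the members' scores after a stricter pattern had been dropped, and before the classes were compared. A SCAN domain needed 16 of 22, and 11 members scored 9 to 13 for KRAB. The motifs, the promoters shown, the finger bins and the split by whole reads were chosen after values were seen. Alternatives were other pseudocounts, filters, normalizations, array weights, a cell number covariate, the replicate block, subsets by cell number and each replicate left out, and 2 more added after seeing the data.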

Additional observations from a re-analysis of the deposited data

Results flagged for a closer look

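Within the 63 members named by rule, 12 of 126 groups of 4 libraries had 1 library far from the other 3, and chance flags about 1 in 20 groups. Among the WT libraries, Zfp36 was at 598 CPM in replicate 2, with the nearest library at 258 CPM. Zfp456 and Zfp943 were lowest in the same library, at 6.81 CPM (nearest 10.6) and 55.2 CPM (nearest 73.3). Zfp28 was highest in replicate 3 at 11.8 CPM, Zfp970 in replicate 1 at 15.4 CPM and Zfp189 in replicate 4 at 6.63 CPM. Among the IL-2-KO libraries, Zfp207 and Zfp760 were highest in replicate 2, at 384 and 28.3 CPM. Zfp712 and Zfp771 were highest in replicate 4, at 14.4 and 5.70 CPM. Zfp335 was highest in replicate 1 at 143 CPM, and Zfp963 in replicate 3 at 10.1 CPM.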

How the results depend on the processing

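All 38 called members kept their sign in all 21 alternatives, but the number past the threshold moved. Counts of members lower, members higher, KRAB members lower, others lower and clustered members lower were 36, 2, 28, 8 and 21 in the main analysis. They were 81, 7, 54, 27 and 49 with array weights, where 31.4% of members and 18.4% of all genes were lower. With the replicate block they were 13, 1, 10, 3 and 6, where 5.04% of members and 4.22% of all genes were lower. Each block held 1 library of each genotype, so the log2 changes could not move. Their signs and the medians of -0.18 (members) and -0.23 (KRAB members) were therefore fixed in that fit. Same-numbered libraries correlated at 0.084, -0.530, -0.402 and 0.394. The highest correlation of any WT library with any IL-2-KO library, 0.655, joined WT 2 to IL-2-KO 3. Those libraries have different numbers and held the most myeloid marker RNA of their groups. The correlations were not separated from that RNA, so they cannot decide whether the numbers pair the samples. In the libraries of 2 M or more cells alone the counts were 1, 0, 0, 1 and 0, and in those under 2 M cells 1, 0, 0, 1 and 0, with 2 libraries a group. Members lower were 0.388% in each, against 0.538% and 0.746% of all genes. The median of the members without a KRAB match was -0.07 and -0.19 there. Quantile normalization gave 13 of 110 others lower and 32 of 134 clustered members lower, where 10.6% of all genes were lower. The GC and length correction gave 6 members higher, where 1532 of all 11279 genes in that fit were higher. All listed Zfp genes gave 4 higher, and a mean of at least 10 gave 1. Leaving out 1 library gave 13 to 50 lower, 1 to 4 higher, 10 to 40 KRAB lower, 3 to 10 others lower and 7 to 30 clustered members lower. Members lower were then 5.04% to 19.4%, against 3.81% to 8.14% of all genes. The small median of the chromosome 13 group from Zfp808 to Zfp934 (-0.05) turned to 0.02 with array weights and 0.12 in the libraries of 2 M or more cells, and ran from -0.11 to 0.02 when 1 library was left out. The median shift moved the median of all genes to -0.038 and quantile normalization to -0.048. The cause of these moves was not tested, except that subsets hold fewer libraries.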

Other observations

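By level, the share of members called lower was set beside that of all genes of the same level. It was 6.67% of 45 members against 6.80% at 5 to under 10 CPM, 16.1% of 56 against 7.45% at 10 to under 20 CPM and 6.10% of 82 against 7.38% at 20 to under 50 CPM. It was 30.8% of 52 against 9.42% at 50 to under 100 CPM and 13.0% of 23 against 11.0% at 100 CPM and above, so that it did not rise steadily with level. These ranges were set after seeing the values and were not tested. Of the 45 Zfp genes below the level limit, 40 were tested, with 2 higher, 2 lower and a median of -0.08.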
